A study of Rattus norvegicus with 20 samples.

Results

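The 8 genes described here carry the insulin signal from the cell surface to glucose uptake: the insulin receptor Insr (ENSRNOG00000029986), its substrates Irs1 (ENSRNOG00000014597) and Irs2 (ENSRNOG00000023509), the kinases Akt1 (ENSRNOG00000028629) and Akt2 (ENSRNOG00000018677), the glucose transporters Slc2a4 (GLUT4, ENSRNOG00000017226) and Slc2a1 (GLUT1, ENSRNOG00000007284), and the hexokinase Hk2 (ENSRNOG00000006116). They were taken by these Ensembl identifiers from a table of 32883 genes. The rule used no measured value, but earlier results of these data were known when it was made. All 8 were among the 13806 genes with enough counts to be tested. RNA was sequenced from the gastrocnemius, which is a calf muscle of mixed fibre types, and from abdominal white fat of 10 Fischer 344 x Brown Norway rats aged 8 months, for which the labels name no treatment, with 1 library of each tissue per animal and 20 libraries in all. The sample labels call each animal male, whereas the design text speaks of 5 males and 5 females, so no comparison by sex was made. The animals had 2 weeks to get used to a reversed light cycle before the tissues were frozen. The labels do not say whether they had been fasted.

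Insulin binds its receptor, a tyrosine kinase, which phosphorylates the adaptor proteins IRS1 and IRS2. These recruit PI3-kinase, whose lipid product activates the AKT kinases. In muscle and fat cells AKT2 releases GLUT4 from intracellular vesicles to the cell surface, whereas GLUT1 resides at the surface without insulin. Hexokinase 2, the isoform typical of insulin-sensitive tissues, phosphorylates the glucose that has entered and so traps it. Skeletal muscle and white fat are the main tissues that take up glucose in response to insulin.

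The upstream sequences of 4 of these genes are shown because their levels carry the results below: Insr and Irs1 varied together between adipose libraries, and Hk2 and Slc2a1 differed between the tissues in opposite directions. RefSeq promoter windows (build GRCr8) were matched by symbol for 6 of the 8 genes, all but Irs2 and Slc2a4. Each sequence is the 250 bases before the start site of the table, 5′ to 3′ on the strand of the gene; for Insr longer transcript models begin further upstream. The windows lie at chr12:6128804-6129053 (minus strand) for Insr, chr9:91053960-91054209 (minus strand) for Irs1, chr5:138002272-138002521 (plus strand) for Slc2a1 and chr4:116841276-116841525 (minus strand) for Hk2. Capitals mark matches on either strand to 5 motifs that do not overlap in these windows. The GC box was searched as GGGCGG, the TATA box as TATAAA, the E-box as CACGTG, the forkhead motif as TGTTTAC and the CCAAT box by the letters of its name.
Insr: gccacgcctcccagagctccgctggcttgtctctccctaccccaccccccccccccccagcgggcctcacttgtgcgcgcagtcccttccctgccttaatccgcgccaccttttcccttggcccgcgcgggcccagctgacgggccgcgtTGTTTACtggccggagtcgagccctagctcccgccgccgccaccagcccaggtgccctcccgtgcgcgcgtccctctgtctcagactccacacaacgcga
Irs1: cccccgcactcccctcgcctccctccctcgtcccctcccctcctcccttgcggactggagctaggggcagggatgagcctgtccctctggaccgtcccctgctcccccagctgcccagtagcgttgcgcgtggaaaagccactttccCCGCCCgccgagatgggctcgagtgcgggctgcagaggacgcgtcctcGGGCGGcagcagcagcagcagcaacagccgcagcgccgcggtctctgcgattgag
Slc2a1: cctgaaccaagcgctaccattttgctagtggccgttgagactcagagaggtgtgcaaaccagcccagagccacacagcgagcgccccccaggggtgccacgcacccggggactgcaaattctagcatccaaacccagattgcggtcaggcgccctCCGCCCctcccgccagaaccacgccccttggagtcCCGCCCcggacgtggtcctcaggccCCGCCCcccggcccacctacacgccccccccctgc
Hk2: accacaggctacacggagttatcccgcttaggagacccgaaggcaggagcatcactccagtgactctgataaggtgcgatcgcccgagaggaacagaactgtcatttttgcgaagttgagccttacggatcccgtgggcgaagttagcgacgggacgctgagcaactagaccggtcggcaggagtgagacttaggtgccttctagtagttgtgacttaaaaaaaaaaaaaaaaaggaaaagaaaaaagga
The Insr window holds 1 forkhead match, on the strand of the gene, a motif found in 3.21% of all 33469 windows of this length. Slc2a1 holds 3 GC boxes and Irs1 holds 2, where 30.5% of all windows hold at least 1. The Hk2 window holds none of the 5 motifs. Its GC content is 49.6%, next to 71.2% for Insr, 70.8% for Irs1 and 68.4% for Slc2a1, and 51.2% for the median window. Among the windows not shown, that of Akt1 also holds none of the 5 motifs. That of Akt2 holds 1 TATA box match, on the opposite strand, where 12.9% of all windows hold at least 1. The GC content is 54.8% for Akt1 and 48.4% for Akt2.

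The muscle libraries held 8446548 to 20141701 counts in total and the adipose libraries 11067641 to 25904168. Transcripts nearly restricted to muscle (170 genes, at least 100-fold higher there) had median levels of 1.41%, 1.57% and 0.454% of those in muscle in adipose libraries 1, 3 and 5, against 0.0265% to 0.149% in the other 7. In muscle library 2, 24.9% of tested genes were at their highest muscle level. This share was not set beside that of each other muscle library, so whether library 2 stands apart by it was not tested. Values with these adipose and muscle libraries set aside are given beside the results where a call was lost or the value moved most. The identifiers in the table are not paired with names in the files used here, so the tissue labels were not checked against named markers, and further genes of the pathway and markers of other cell types were not analysed here. These are bulk tissues, in which fewer cells of a type and less RNA per cell cannot be told apart.

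The first comparison asked how each gene differed between the muscle and adipose libraries. Its main test did not use the pairing by animal. Slc2a4 and Hk2 were higher in muscle, and Slc2a1 was higher in adipose tissue, under both ways of scaling the libraries. Insr, Irs1, Irs2, Akt1 and Akt2 were also called higher in muscle with TMM factors, which assume that most genes do not differ, but none of them was when counts were divided by library totals. With TMM factors 7 of 8 genes were called higher in muscle, beside 37.6% of all tested genes, and 1 of 8 higher in adipose tissue, beside 42.2% (quasi-likelihood test of edgeR, adjusted p below 0.05 after Benjamini-Hochberg). With library totals 2 of 8 were called higher in muscle, beside 12.3% of all tested genes, and 3 of 8 higher in adipose tissue, beside 74.2%. The change of scaling shifted the log2 fold changes, at the median, by -1.30. The median log2 fold change of the 8 genes was 1.31 against -0.09 for all tested genes with TMM factors, and -0.01 against -1.39 with library totals.

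**Figure D1:**
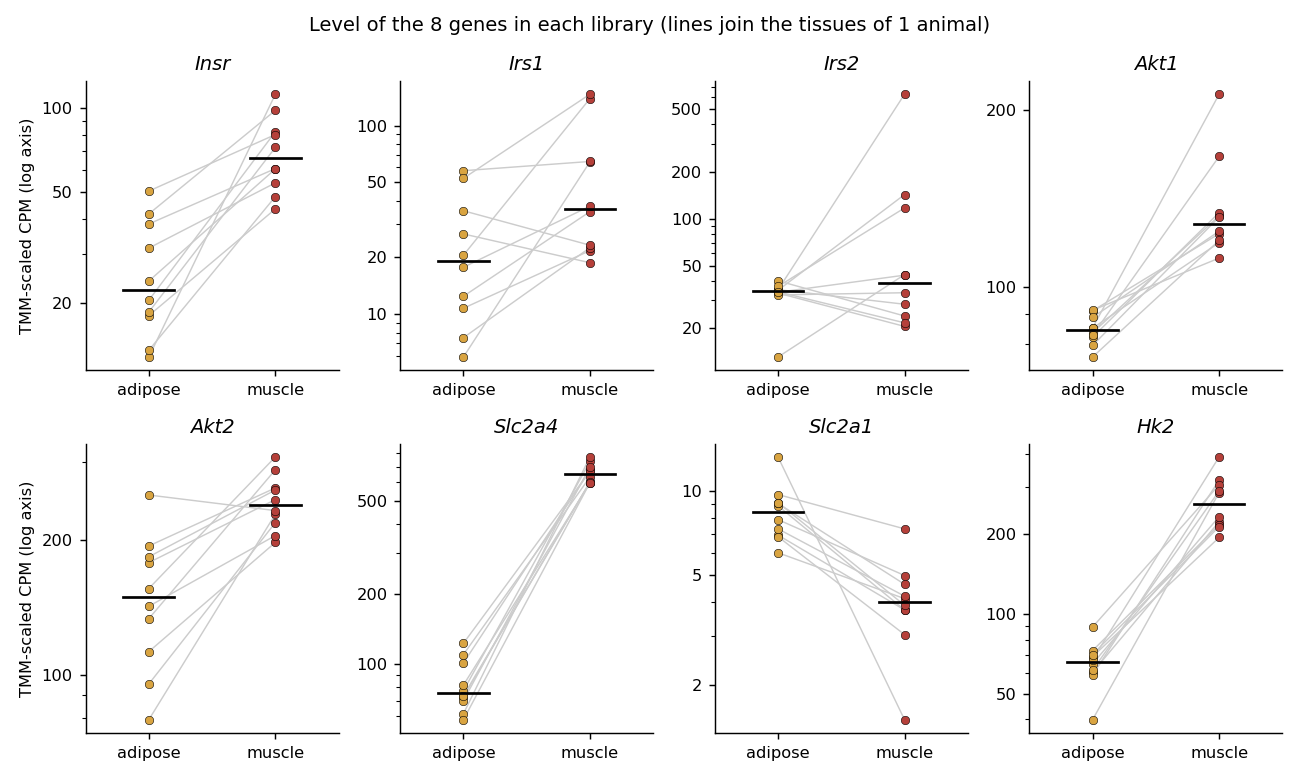
Level of each gene in each library, in CPM scaled with TMM factors on log axes; points are libraries (10 per tissue), grey lines join the tissues of 1 animal and bars are medians. Akt1, Slc2a4 and Hk2 do not overlap between the tissues, the Irs2 level of muscle library 2 lies at 625 CPM, and Slc2a1 alone lies lower in muscle.

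**Figure D2:**
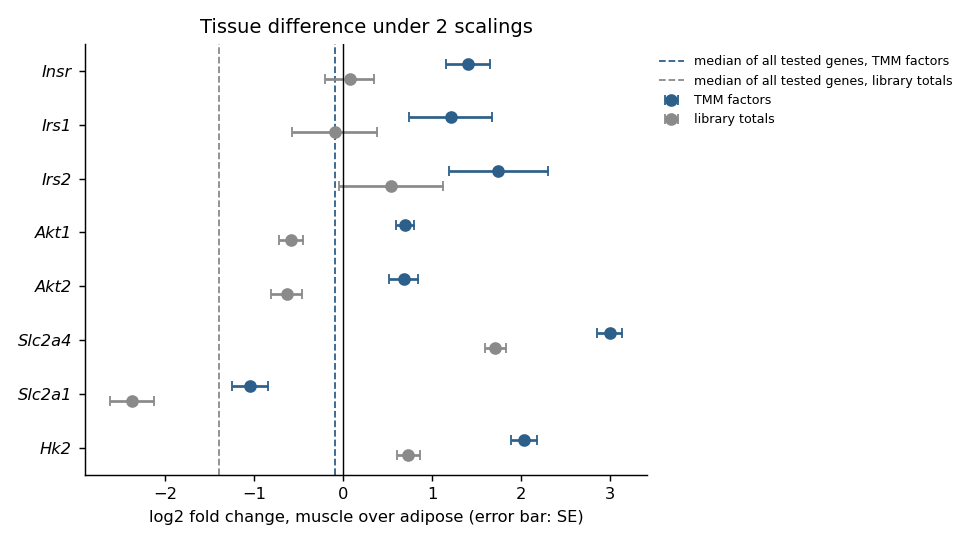
Log2 fold change of muscle over adipose tissue with its standard error for the 8 genes, with TMM factors (blue) and library totals (grey); dashed lines are the medians of all 13806 tested genes, -0.09 and -1.39. Slc2a4 and Hk2 lie above 0 and Slc2a1 below 0 under both scalings with calls in both; Akt1 and Akt2 change sign with calls in both; Irs1 changes sign (1.21 and -0.10) and Insr and Irs2 stay above 0 (0.07 and 0.54 with library totals), these 3 without a call at library totals.

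Slc2a4 encodes GLUT4, the insulin-responsive transporter. In muscle its level was lowest at 596 CPM (counts per 1000000 counts, scaled with TMM factors), had a median of 651 and was highest at 771. In adipose tissue the lowest, median and highest levels were 57.9, 75.2 and 123 CPM. The libraries of the tissues did not overlap, and muscle was the higher in 10 of 10 animals under either scaling. The difference was 7.95-fold, or 2.99 on the log2 scale (SE 0.14; edgeR, adjusted p = 1.30e-14), and 3.27-fold, or 1.71 (SE 0.12, adjusted p = 5.83e-12), with library totals. With TMM factors the highest adipose level came from library 3, the one with the most muscle-restricted transcripts. By totals of all genes, libraries 7, 4 and 2 held more Slc2a4, at 164.6, 158.1 and 150.8 CPM. Library 3 then held 147.9 CPM, and 1.57% of the muscle median amounts to 6.25 CPM. Whether muscle transcripts contributed to the adipose Slc2a4 levels was not tested. Without adipose libraries 1, 3 and 5 the log2 fold change was 3.11.

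Slc2a1 encodes GLUT1, the transporter of basal glucose uptake found in many cell types. It was counted at 13.5 to 90 reads per library in muscle and at 80.3 to 381 in adipose tissue, so counting error weighs most on this gene. The lowest, median and highest levels were 1.5, 4.0 and 7.32 CPM in muscle and 6.01, 8.38 and 13.3 CPM in adipose tissue. Adipose tissue was the higher in 10 of 10 animals, and 9 of the 10 muscle libraries lay below each adipose library; the exception was muscle library 2. The level was 2.06-fold higher in adipose tissue, with muscle over adipose at -1.04 on the log2 scale (SE 0.20, edgeR adjusted p = 5.74e-05). With library totals it was 5.16-fold higher there (log2 fold change -2.37, SE 0.25, adjusted p = 6.78e-09), and the libraries no longer overlapped.

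Hk2 encodes the hexokinase that commits glucose to metabolism inside the cell. Its lowest, median and highest levels were 194, 259 and 390 CPM in muscle and 39.9, 66.1 and 89.2 CPM in adipose tissue. The tissues did not overlap under either scaling, and muscle was the higher in 10 of 10 animals. The difference was 4.09-fold, or 2.03 on the log2 scale (SE 0.14; edgeR, adjusted p = 1.21e-11), and 1.66-fold, or 0.73 (SE 0.13, adjusted p = 1.18e-05), with library totals. With TMM factors 3 of the 8 genes were higher in muscle without overlap of libraries, beside 21.0% of all tested genes, and 0 were higher in adipose tissue without overlap, beside 24.5%. With library totals 2 of 8 (Slc2a4 and Hk2) were higher in muscle without overlap, beside 6.02%, and 1 of 8 (Slc2a1) higher in adipose tissue, beside 50.3%.

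Insr, the receptor gene, had a lowest, median and highest level of 43.5, 66.5 and 112 CPM in muscle and of 12.8, 22.2 and 50.4 CPM in adipose tissue. Muscle was the higher in 10 of 10 animals, and 8 muscle libraries lay above each adipose library. The log2 fold change was 1.40 with an SE of 0.25 (edgeR, adjusted p = 2.08e-05). With library totals muscle was the higher in 5 of 10 animals, and the log2 fold change was 0.07 (SE 0.28, adjusted p = 0.806).

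Irs1 and Irs2 encode the adaptors that the receptor phosphorylates. In muscle the highest library exceeded the lowest 7.82-fold for Irs1 and 30.6-fold for Irs2, while the tissues differed 2.31-fold and 3.35-fold. Irs1 had a lowest, median and highest level of 18.8, 36.2 and 147 CPM in muscle and of 5.93, 19.1 and 57.6 CPM in adipose tissue. The highest muscle levels belonged to libraries 8 and 4, at 147 and 139 CPM, and the next lay at 64.5 CPM. The tissues overlapped, with muscle the higher in 8 of 10 animals and the log2 fold change at 1.21 (SE 0.46; edgeR, adjusted p = 0.0217). Without animal 4 it was 0.94 (adjusted p = 0.0798), and without adipose libraries 1, 3 and 5 it was 1.09 (adjusted p = 0.0620). With library totals it was -0.10 (adjusted p = 0.855).

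The tissue difference of Irs2 rested on muscle library 2. Its level there was 625 CPM, the next highest muscle libraries, 7 and 8, held 142 and 117 CPM, and the other 7 lay between 20.4 and 43.8 CPM. In adipose tissue 9 libraries lay between 32.5 and 40.0 CPM, and library 3 held 13.0 CPM. Of the 10 muscle libraries, 5 thus lay above each adipose library, and muscle was the higher in 6 of 10 animals. The log2 fold change was 1.74 with an SE of 0.56 (edgeR, adjusted p = 0.00703) with all libraries. It was 0.69 (adjusted p = 0.0685) without muscle library 2, 0.68 (adjusted p = 0.184) with the animal as a block, 0.73 (limma-voom adjusted p = 0.155) and 0.54 (adjusted p = 0.388) with library totals. Without that library and with library totals it was -0.67 (adjusted p = 0.0865).

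Akt1 and Akt2 encode the kinases downstream of PI3-kinase, of which AKT2 is the isoform tied to glucose uptake. Akt1 had a lowest, median and highest level of 112, 128 and 213 CPM in muscle and of 76.2, 84.5 and 91.4 CPM in adipose tissue, without overlap. Akt2 had levels of 198, 240 and 308 CPM in muscle and of 79.4, 149 and 253 CPM in adipose tissue, which overlapped. With TMM factors Akt1 was 1.63-fold higher in muscle (log2 fold change 0.70, SE 0.10, edgeR adjusted p = 1.51e-06) and Akt2 1.60-fold (0.68, SE 0.17, adjusted p = 0.000747). With library totals both were called in the other direction: the log2 fold change was -0.59 (SE 0.13, adjusted p = 0.000289) for Akt1 and -0.63 (SE 0.17, adjusted p = 0.00162) for Akt2, and muscle was then the higher in 1 of 10 animals for each. Of all tested genes, 12.9% were called in opposite directions under the 2 scalings. The direction called for the Akt genes thus depended on the scaling.

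Ratios of 2 genes within a library do not depend on how libraries are scaled, and gene lengths cancel when the ratio is compared between tissues. For each library the log2 ratio of counts (plus 1) was taken, and the difference between the tissues was tested over 10 animals by exact permutation (two-sided, flipping the sign within animals), adjusted over 4 ratios. The Slc2a4 to Slc2a1 ratio of counts lay between 91.2 and 370 in muscle, with a median of 161, and between 6.11 and 20.2 in adipose tissue, with a median of 8.73. It was 17.2-fold higher in muscle (log2 difference 4.10, SD 0.88, n = 10), in 10 of 10 animals and without overlap (exact permutation p = 0.00195, the smallest this design allows, adjusted p = 0.00391). The balance of the transporter transcripts thus differed between the tissues whatever the scaling.

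The Hk2 to Slc2a4 ratio lay between 0.287 and 0.506 in muscle and between 0.490 and 1.21 in adipose tissue. It was 2.00-fold lower in muscle (log2 difference -1.0, SD 0.50, n = 10), in 10 of 10 animals (exact permutation p = 0.00195, adjusted p = 0.00391), so Slc2a4 exceeded its adipose level by more than Hk2 did. The isoform balances of the kinases and adaptors did not pass the test. The Akt2 to Akt1 ratio had a median of 1.81 in muscle and 1.71 in adipose tissue (log2 difference 0.07, SD 0.64, n = 10, exact permutation adjusted p = 0.740), higher in muscle in 6 of 10 animals. The Irs1 to Irs2 ratio ran from 0.103 (animal 2) to 6.78 (animal 4) in muscle, while its adipose values lay between 0.171 and 1.66 (log2 difference 0.43, SD 1.43, n = 10, exact permutation adjusted p = 0.529). That difference rested largely on animal 4: it was 0.09 without it, from 0.09 to 0.68 with each animal left out in turn, and 0.15 as the median over animals.

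**Figure D3:**
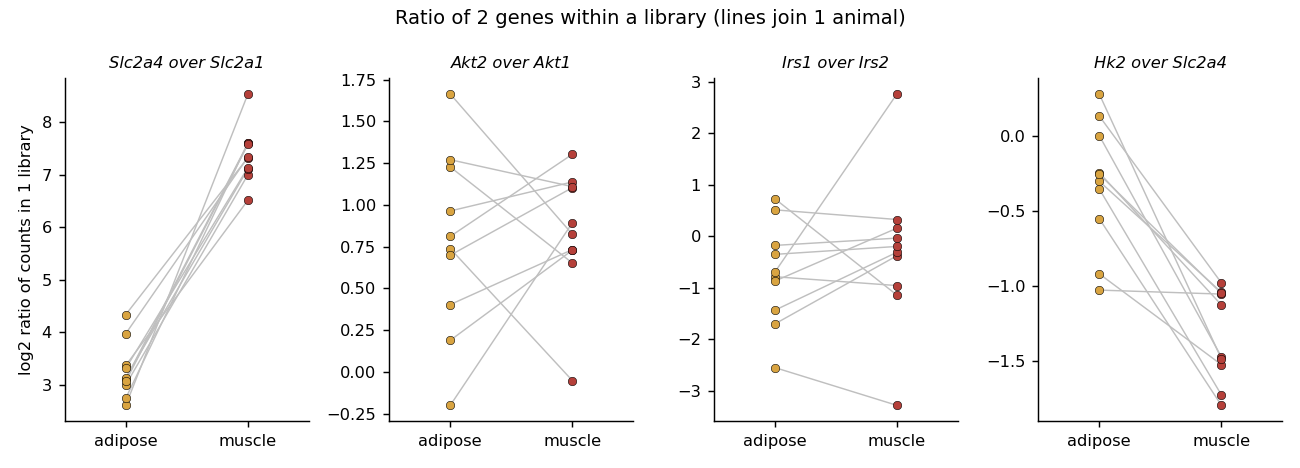
Log2 ratio of the counts of 2 genes within each library; points are libraries (10 per tissue) and grey lines join the tissues of 1 animal. Slc2a4 over Slc2a1 rises and Hk2 over Slc2a4 falls from adipose to muscle in 10 of 10 animals, while the lines of Akt2 over Akt1 and Irs1 over Irs2 cross.

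The next comparison asked how much each gene varied between animals. As a description, the SD of log2 CPM over 10 libraries was set beside that of all tested genes, whose median was 0.35 in muscle and 0.41 in adipose tissue. Slc2a4 was among the steadier genes in muscle, with an SD of 0.13, and 95.7% of tested genes had a larger one. Akt1 had an SD of 0.08 in adipose tissue, and 99.8% of tested genes had a larger one (0.17 and 96.3% with library totals). At the other end, Irs2 had an SD of 1.57 in muscle, where 0.942% of tested genes had a larger one, and of 1.02 without library 2, where 3.42% did. The same gene had an SD of 0.46 in adipose tissue, and of 0.09 without library 3, where 99.5% of genes had a larger one. Library 3 was the extreme of Irs2, whereas the other genes were not freed of their own extremes. The other 9 libraries ran from 32.5 to 40.0 CPM with TMM factors, but from 47.5 to 66.0 CPM with library totals. Irs1 varied in both tissues, with SDs of 1.10 and 1.12, and in adipose tissue its highest library exceeded its lowest 9.71-fold.

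Whether a gene varied more in one tissue was tested on the absolute deviations from the tissue median. The mean deviation of Irs2 was 1.09 in muscle and 0.19 in adipose tissue on the log2 scale, larger in muscle in 9 of 10 animals (two-sided exact permutation of signs, p = 0.0488, adjusted p = 0.246 over 8 genes). The difference was 0.90 with all animals, 0.54 without animal 2 and 1.31 without animals 1, 3 and 5 (exact permutation adjusted p = 0.333 and 0.250). None of the 8 genes passed the test after adjustment, and Irs2 alone had an unadjusted p below 0.05.

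In muscle library 2, 4 of the 8 genes (Insr, Irs2, Akt1 and Slc2a1) had their highest muscle level, beside that 24.9% of all tested genes. Relative to the tissue median, Irs2 stood 4.03 higher on the log2 scale, and 0.333% of tested genes stood further up in that library. Slc2a1 stood 0.86, Irs1 0.83, Insr 0.76 and Akt1 0.73 higher, and 11.9% to 14.9% of tested genes stood further up than each of these. Slc2a4 stood 0.05 above its median there, and Hk2 was at its lowest muscle level, 0.41 below the median. In muscle library 8, Irs1 stood 2.02 and Irs2 1.61 above their medians, and in library 4 Irs1 stood 1.94 above and Irs2 0.90 below.

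**Figure D4:**
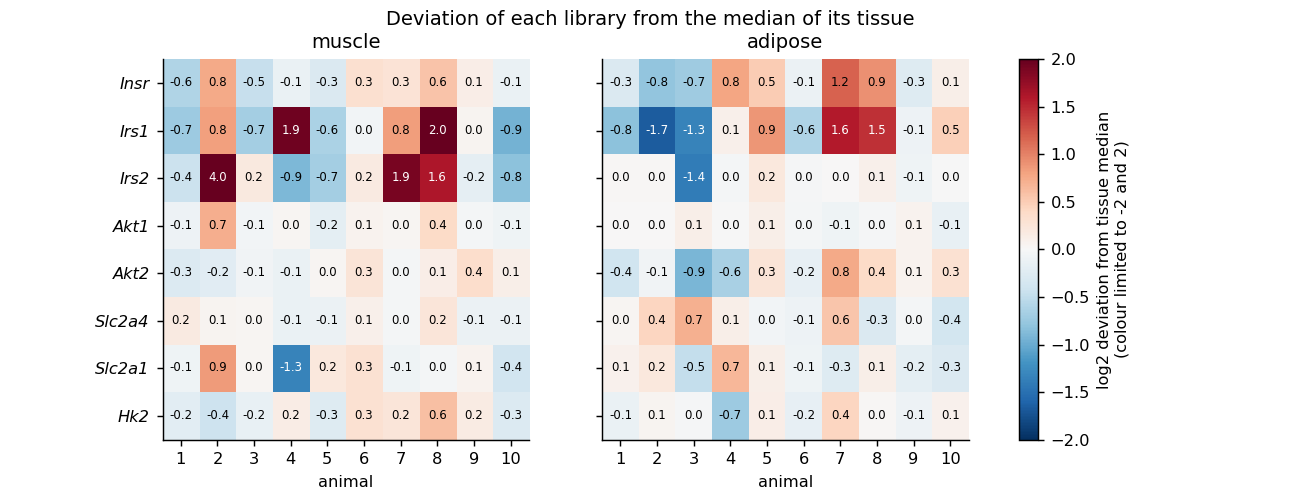
Log2 deviation of each gene in each library from the median of its tissue, with animals in columns; red is above and blue below the median, and the colour scale ends at -2 and 2. The Irs1 and Irs2 rows hold the strongest colours in muscle, and in adipose tissue the Insr and Irs1 rows share high values in animals 7 and 8.

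The last comparison asked whether the genes varied together. Within each tissue 28 pairs were correlated over 10 libraries on log2 CPM, 56 correlations in all, with permutation p-values adjusted over them. In adipose tissue Insr and Irs1 varied together: both were lowest in animal 2, at 12.8 and 5.93 CPM, and highest in animal 7, at 50.4 and 57.6 CPM. Pearson's r was 0.92 (permutation p = 0.00026, adjusted p = 0.0109) and Spearman's rho 0.95 (permutation p = 9e-05, adjusted p = 0.00504). Without animals 7 and 8, the farthest from the Insr median, r was 0.85. With library totals r was 0.92 (permutation adjusted p = 0.00896) and rho 0.82 (permutation adjusted p = 0.0455), and without adipose libraries 1, 3 and 5 r was 0.90 (7 libraries, exact permutation adjusted p = 0.0711). In muscle the same pair had r = 0.62 and rho = 0.71 (permutation adjusted p = 0.278 and 0.245).

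In muscle, Insr varied with Akt1, with r = 0.83 (permutation p = 0.00039, adjusted p = 0.0109) and rho = 0.90 (permutation p = 0.00078, adjusted p = 0.0218). Without animals 1 and 2, the farthest from the Insr median, r was 0.80, and without muscle library 2 alone it was 0.78 (permutation adjusted p = 0.0609). With library totals r was 0.86 (permutation adjusted p = 0.0126) and rho 0.73 (permutation adjusted p = 0.112). In adipose tissue the sign of this pair turned with the scaling: r was -0.39 and rho -0.49 with TMM factors (permutation adjusted p = 0.575 and 0.578), and r was 0.55 and rho 0.55 with library totals (permutation adjusted p = 0.247 and 0.321). Of the other pairs, none passed the adjusted test with TMM factors and all libraries; 2 more in muscle and 4 more in adipose tissue had an unadjusted permutation p below 0.05. Without muscle library 2, 3 muscle pairs passed instead: Akt1 with Hk2 (r = 0.91), Insr with Hk2 (r = 0.89) and Irs1 with Akt1 (r = 0.80; permutation adjusted p = 0.00728, 0.0379 and 0.0379). Their rho values were 0.90, 0.85 and 0.78, and none of these passed after adjustment (permutation adjusted p = 0.0608, 0.0851 and 0.125). With library totals, Akt1 with Slc2a1 passed in adipose tissue (r = 0.93, permutation adjusted p = 0.00896), where r was 0.03 with TMM factors. Akt2 with Hk2, Irs1 with Akt2 and Insr with Irs2 also passed there (r = 0.86, 0.81 and 0.64). Insr with Irs2 and Irs2 with Akt1 passed in muscle with library totals (r = 0.83 and 0.89). By rho neither of these muscle pairs passed (0.65 and 0.53, permutation adjusted p = 0.21 and 0.362). Nor did Insr with Irs2 in adipose tissue (rho = 0.66, permutation adjusted p = 0.207). In all, 1 muscle pair and 6 adipose pairs passed by rho with library totals. The share of correlated pairs among all tested genes was not computed. The points of each correlation share a library and its scaling factor.

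**Figure D5:**
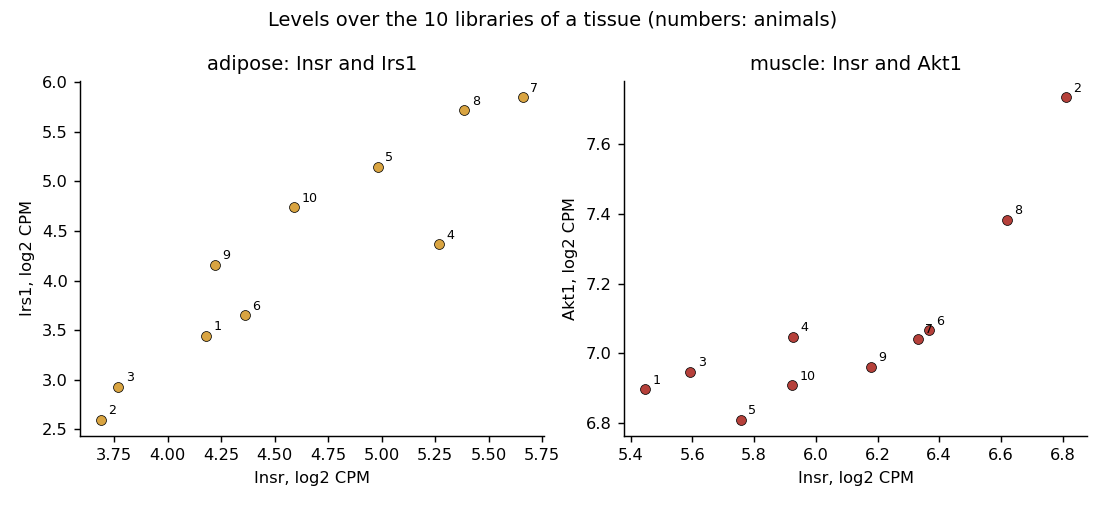
Log2 CPM of Insr against Irs1 in the 10 adipose libraries (left) and of Insr against Akt1 in the 10 muscle libraries (right), with points numbered by animal. The adipose points follow a line from animal 2 to animal 7 (r = 0.92), and the muscle points include animals 2 and 8 at the upper end (r = 0.83).

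Across the tissues none of the 8 genes passed the test for a relation between the muscle and the adipose library of the same animal. Over 10 animals and with TMM factors, r ran from -0.39 for Slc2a1 to 0.35 for Akt2, and rho from -0.30 for Akt1 to 0.44 for Akt2. The lowest permutation p was 0.256 for r and 0.203 for rho, and the adjusted values over 8 genes were 0.921 for each r and at least 0.850 for rho. Without the 2 animals farthest from the muscle median of each gene, r ran from -0.41 to 0.48. With library totals rho was 0.65 for Akt2 (permutation p = 0.0477, adjusted p = 0.381). For Irs2 rho was then -0.53, against 0.12 with TMM factors, and no gene passed after adjustment. With TMM factors the values also depended on the animals included. Without animal 2, r ran from -0.66 for Slc2a1 to 0.55 for Insr, whose r was 0.13 with all animals (lowest permutation adjusted p = 0.449). Without animals 1, 3 and 5, r was 0.61 for Irs2, against 0.08 with all animals, and -0.28 for Insr (permutation adjusted p = 0.848 for both). For Irs1, whose levels spread widely in both tissues, r was 0.33, and 0.04 without animals 4 and 8.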

How the data were processed

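The file the authors deposited holds expected counts of each gene in each library without normalisation. Many are fractions: 153 of the 160 values of the 8 genes were not whole within 0.005. Tools listed in the submitters' processing notes are STAR, featureCounts and bcl2fastq, with genome build rn6. Their versions, the annotation, the strand setting and the handling of multi-mapping reads are not stated by these sources. Per the labels' protocols, about 10 mg muscle and 30 mg fat were extracted, and 300 ng RNA went into an mRNA library kit. Counts are reads without molecular identifiers.

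Columns were matched to samples by name, and groups come from the sample titles. Symbols of the 8 genes come from the rule that chose them; no table used here pairs other identifiers with names, so the lists of pathway genes and cell type markers and the search for genes of similar pattern were not run. The members and lists were chosen with earlier results of these data known. All 8 genes are named.

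Counts were rounded and analysed in R 4.3.3 with edgeR 4.0.16. This used filterByExpr, TMM factors, a robust quasi-likelihood test and Benjamini-Hochberg adjustment over all tested genes. Tissue was the only term of the main fit. Library totals are sums over the tested genes unless all genes are named. The test was tried on simulated data with equal mean levels in both tissues for most genes. That could not check scaling between tissues that differ in most genes. SE is the log2 fold change divided by the square root of the F statistic. Log2 CPM used a prior count of 2. Permutation tests used scipy 1.17.1, with 100000 resamples for correlations (all orders for 7 libraries). Alternatives were other scalings and filters, the animal as a block, limma-voom (limma 3.58.1), DESeq2 1.42.0 and libraries or animals left out. DESeq2 keeping outlying counts, library totals without muscle library 2 and the Irs2 spread without single libraries were added after seeing the data.

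Equal numbers mark tissues of 1 animal, per the sample titles and the design text. Over 8303 genes, deviations from the mean of the tissue had a median correlation of 0.12 within animals (-0.22 to 0.42) and of -0.03 between animals, so the pairing rests on the labels. No libraries of a tissue agreed within sampling noise (lowest chi-square per degree of freedom 11.5).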

Additional observations from a re-analysis of the deposited data

Results flagged for a closer look

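Over 16 groups of 10 libraries (8 genes in each of the tissues, log2 CPM), the highest and the lowest library were compared with their nearest neighbour, and in 2 cases the gap divided by the range of the group exceeded Dixon's 95% critical value of 0.466. Chance gives about 1 in 20 groups. Irs2 in adipose library 3 was 3.71, and the next lowest adipose library, 9, was 5.03. Library 3 is also the adipose library with the most muscle-restricted transcripts, 1.57% of their muscle level; their part in the low Irs2 level was not tested. With TMM factors Hk2 in adipose library 4 was 5.32, and the next lowest, library 6, was 5.88. By totals of the tested genes, library 4 held 78.9 CPM of Hk2 and library 3 held 78.2 CPM. By totals of all genes they held 77.4 and 78.1 CPM, so which was lowest depended on the total used. The Irs2 level of muscle library 2 did not exceed the critical value, because the remaining muscle libraries were themselves widely spread.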

How the results depend on the processing

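Slc2a4, Slc2a1 and Hk2 kept their direction and their call under all 22 alternatives each. With library totals, the calls were 1692 genes for muscle and 10240 for adipose tissue (5187 and 5824 with TMM factors), and 2 and 3 among the 8 genes; without muscle library 2 as well, these numbers were 1691, 10658, 2 and 3. Log2 fold changes that changed sign with library totals were those of Irs1 (-0.10), Akt1 (-0.59) and Akt2 (-0.63), and, without muscle library 2 as well, of Insr (-0.064), Irs1 (-0.14), Irs2 (-0.67), Akt1 (-0.72) and Akt2 (-0.63). With the replicate block, 10990 genes were called and 6 and 1 of the 8, since Irs2 (0.68) lost its call; it changed no other call among the 8. With each animal left out in turn, Irs2 ran from 0.69 to 1.90 and Irs1 from 0.94 to 1.42. The ratios Slc2a4 over Slc2a1 and Hk2 over Slc2a4 were 3.98 and -1.0 as medians over animals, where the permutation test of a median gave adjusted p = 0.0625 for both. All 10 differences of each had the same sign, and flipping the smallest ones leaves a median unchanged. That value was therefore the lowest this test could give beside the remaining ratios, so it cannot show whether these 2 weakened. Without the replicate block (10 against 10 libraries) both ratios kept their call. Akt2 over Akt1 changed sign without animals 1, 3 and 5 (-0.13) and ran from -0.048 to 0.17 with each animal left out; it passed no test. By r, 1 pair was correlated in muscle, and 3 with library totals or without muscle library 2. In adipose tissue 1 pair was, 5 with library totals and 0 without adipose libraries 1, 3 and 5. In that last setting 3 adipose pairs had an unadjusted permutation p below 0.05. Depth limits Slc2a1 most, with as few as 13.5 reads in a muscle library.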
